A study of Mus musculus with 11 samples.

Results

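The chromatin around 10 genes, listed together as hormone receptor and hormone-sensing genes, was examined in the mouse mammary gland by ATAC-seq, in which a transposase marks open DNA. The genes are Esr1, Pgr and Prlr, which encode the receptors for estrogen, progesterone and prolactin; Greb1, an estrogen-induced partner of the estrogen receptor; Tnfsf11 (RANKL) and Wnt4, ligands made in response to progesterone; Tnfrsf11a (RANK), the receptor of RANKL; and Tox3, Faah and Dnajc12, which encode a chromatin-associated HMG-box protein, the enzyme that breaks down the endocannabinoid anandamide and a J-domain co-chaperone. A peak was assigned to a gene when it overlapped the gene body or lay within 100 kb of one of its transcription start sites (TSSs) in mm10, and a peak near several of the genes went to the nearest. This gave 240 of 153396 peaks: 36 for Esr1, 23 for Pgr, 27 for Prlr, 36 for Greb1, 10 for Tnfsf11, 15 for Tnfrsf11a, 36 for Wnt4, 14 for Tox3, 19 for Faah and 24 for Dnajc12. Of these, 15 lay within 500 bp of a TSS of the gene itself, 11 within 500 bp of a TSS of another gene, 106 elsewhere in the gene body and 108 in the flanks. The study itself names Tox3 and Faah from these libraries, as luminal genes with sites near the TSS that opened in luminal cells. Their luminal-high sites below partly restate that choice. Whether Tox3, Faah and Dnajc12 take part in hormone sensing was not tested. All 10 genes were chosen with earlier results of these data known, so their pattern is not independent of that choice.

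The cells came from 5-week-old C57BL/6 females carrying the E-cadherin-GFP reporter, which all groups share. The terminal end buds (TEBs) at which ducts elongate in puberty were dissected apart from the ducts behind them. From each, CD29+CD24+ cells without the blood and endothelial markers Ter119, CD45 and CD31 were sorted into luminal (high GFP) and basal (low GFP) cells. There were 2 basal duct libraries (replicates 1 and 3, a further one having been discarded by the authors for low cell number) and 3 in each of the other groups (luminal duct, basal TEB and luminal TEB). The GFP reporter both guided the dissection and set the gates, and the luminal gate does not separate hormone-responsive mature luminal cells from luminal progenitors. A smaller share of cells with an open site and a less open site in each cell cannot be told apart in such bulk libraries.

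Estrogen and progesterone act in the gland through nuclear receptors carried by a subset of luminal cells, which in turn signal to their neighbours through secreted ligands such as RANKL and WNT4. Prolactin acts through a cell-surface receptor that signals by JAK2 and STAT5. Basal (myoepithelial) cells largely lack these nuclear receptors and are among the cells that receive the relayed signals.

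The sites below are examples. They are 6 windows of 300 bases centred on peaks away from the main promoters, shown because 5 of them were more open in luminal than in basal cells and the sixth, in Greb1, was more open in basal cells and holds the only match to the estrogen response element among the 240 peaks. They were picked after their values were seen. For Esr1, Pgr and Prlr, other peaks described below were more open in luminal cells. Windows of a Dnajc12 and a Wnt4 peak were drawn in the same way and are not shown. That of Wnt4 held no match to the motifs searched. Sequences are the plus strand of mm10, 5′ to 3′. Capitals mark matches, on either strand, to TGTTTAC (the forkhead motif, bound by FOXA1), TTCNNNGAA (STAT), TGANTCA (AP-1), GGAATG (TEAD) and GGTCANNNTGACC (estrogen response element, ERE), and none of the matches shown overlaps another.
Esr1, intron, chr10:4625282-4625581: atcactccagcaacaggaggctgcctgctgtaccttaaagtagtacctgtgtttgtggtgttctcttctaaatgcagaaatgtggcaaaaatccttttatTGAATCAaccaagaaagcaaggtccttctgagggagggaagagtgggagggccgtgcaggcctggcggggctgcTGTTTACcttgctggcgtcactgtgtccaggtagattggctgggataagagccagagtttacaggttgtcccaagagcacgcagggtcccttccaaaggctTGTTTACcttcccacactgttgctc
Pgr, intron, chr9:8903804-8904103: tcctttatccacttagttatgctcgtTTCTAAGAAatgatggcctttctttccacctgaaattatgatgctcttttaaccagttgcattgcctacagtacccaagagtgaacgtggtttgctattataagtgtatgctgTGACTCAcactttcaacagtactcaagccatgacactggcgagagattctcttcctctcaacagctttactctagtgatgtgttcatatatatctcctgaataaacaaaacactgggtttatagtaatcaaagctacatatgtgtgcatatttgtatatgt
Prlr, upstream of the internal TSS, chr15:10223535-10223834: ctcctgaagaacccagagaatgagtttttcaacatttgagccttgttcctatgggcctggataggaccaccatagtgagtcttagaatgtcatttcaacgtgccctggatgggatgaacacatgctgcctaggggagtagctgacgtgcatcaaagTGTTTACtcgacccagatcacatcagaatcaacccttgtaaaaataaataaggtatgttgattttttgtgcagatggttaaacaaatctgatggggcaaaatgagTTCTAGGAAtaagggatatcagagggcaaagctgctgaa
Tox3, intergenic, chr8:90391658-90391957: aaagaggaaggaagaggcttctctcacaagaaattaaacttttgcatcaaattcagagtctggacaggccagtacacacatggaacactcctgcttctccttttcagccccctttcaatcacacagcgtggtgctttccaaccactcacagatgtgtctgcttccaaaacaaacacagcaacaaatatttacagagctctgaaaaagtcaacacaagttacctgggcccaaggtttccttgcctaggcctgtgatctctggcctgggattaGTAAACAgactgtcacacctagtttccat
Tnfrsf11a, intergenic, chr1:105866965-105867264: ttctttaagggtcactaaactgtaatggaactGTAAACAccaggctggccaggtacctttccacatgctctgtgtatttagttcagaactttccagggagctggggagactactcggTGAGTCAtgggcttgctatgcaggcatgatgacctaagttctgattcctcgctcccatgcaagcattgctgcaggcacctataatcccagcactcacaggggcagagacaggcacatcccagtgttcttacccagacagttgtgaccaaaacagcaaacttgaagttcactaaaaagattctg
Greb1, intron, chr12:16760324-16760623: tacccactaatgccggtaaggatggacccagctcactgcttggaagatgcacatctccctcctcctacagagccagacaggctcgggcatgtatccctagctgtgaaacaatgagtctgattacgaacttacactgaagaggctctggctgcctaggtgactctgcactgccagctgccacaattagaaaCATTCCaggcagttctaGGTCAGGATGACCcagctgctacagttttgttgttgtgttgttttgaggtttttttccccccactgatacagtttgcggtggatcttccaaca

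These letters are common in open chromatin. In windows of the same length centred on all 153396 peaks, the forkhead motif was found in 6.52%, STAT in 9.45%, AP-1 in 25.9%, TEAD in 21.2% and the ERE in 0.103%. The Esr1 window holds 2 forkhead matches and 1 AP-1 match, the Prlr window a forkhead and a STAT match, and the Tnfrsf11a window a forkhead and an AP-1 match. Forkhead matches stand in the Esr1, Prlr, Tox3 and Tnfrsf11a windows. Among the 118 sites of these genes away from promoters and lower in basal duct, 9.32% hold one. The windows shown are therefore not typical of those sites in their motifs. A match is a description of the sequence and not a measured binding site.

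Library totals over peaks were 1821942 to 9986384 counts, lowest in the 3 basal TEB libraries (1821942 to 2489582) and highest in the 2 basal duct libraries. Values below are CPM, that is, counts scaled to a common library total, with TMM factors over the 11 libraries. Promoters of 6 basal markers summed to 161 to 176 CPM in basal duct, 90.0 to 126 in basal TEB and 24.8 to 33.1 in the luminal libraries. Those of 6 luminal markers summed to 217 to 277 CPM in luminal duct, 208 to 246 in luminal TEB, 141 to 163 in basal duct and 77.2 to 87.3 in basal TEB. Fibroblast marker promoters (4 of 6 with a peak; Col1a1 and Lum without one) were called higher in basal than in luminal duct in 4 of 4, with sums of 84.7 to 99.9 against 19.1 to 19.8 CPM, and in 3 of 4 in TEBs (42.4 to 52.4 against 12.5 to 18.9). Endothelial markers (2 of 5 with a peak; Pecam1, Cdh5 and Tek without one) summed to 25.2 to 28.7 CPM in basal duct, 17.6 to 22.5 in basal TEB and 4.45 to 7.57 in the luminal libraries. Pericyte markers (3 of 4 with a peak; Cspg4 without one) summed to 26.3 to 30.5 in basal duct, 14.6 to 20.5 in basal TEB and 10.1 to 15.5 in the luminal libraries. Immune markers (3 of 7 with a peak; Ptprc, Cd3e and Lyz2 among those without one) summed to 10.7 to 26.2 CPM and the adipocyte marker with a peak (1 of 4; Adipoq, Plin1 and Fabp4 without one) to 6.21 to 19.0 over all groups. The basal, fibroblast, endothelial and pericyte sums were higher in basal than in luminal duct, as at the basal-high sites described below, and their part in those sites was not tested. The immune markers had 1 promoter called higher and 1 lower in basal than in luminal duct, and the adipocyte marker was not called.

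In ducts, most sites around these genes were more open in luminal than in basal cells. Basal duct was below luminal duct at 122 of 240 peaks and above it at 44 (edgeR exact test, FDR 0.05), against 36.6% of all tested peaks called lower and 31.8% called higher. That is 50.8% and 18.3% of the 240. The median log2 fold change over the 240 peaks was -0.97, beside -0.10 over all peaks. As the genes were chosen with earlier results of these data known, these shares and medians are a description. The pattern lay away from the start sites: 118 of 214 peaks more than 500 bp from any TSS were lower and 37 higher, beside 39.6% and 30.3% of all peaks at that distance. Tox3 had 13 of 13 such peaks lower in basal duct, Prlr 19 of 25 with 1 higher, Esr1 23 of 33 with 1 higher, Faah 9 of 14 with 1 higher, Pgr 12 of 20 with 3 higher and Dnajc12 12 of 20 with 3 higher. Greb1 (14 lower and 7 higher of 33), Tnfsf11 (2 and 2 of 9), Tnfrsf11a (4 and 5 of 13) and Wnt4 (10 and 14 of 34) were mixed.

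**Figure D1:**
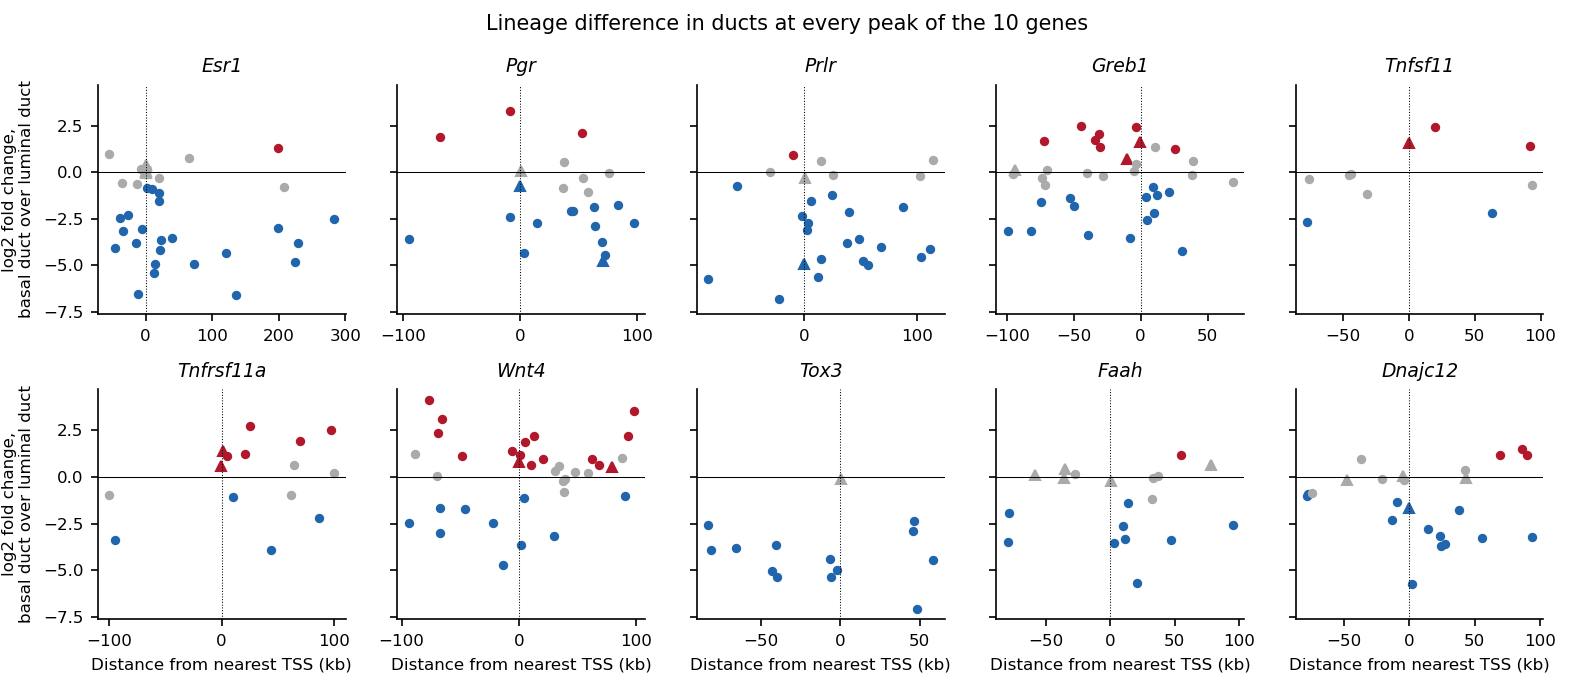
Log2 fold change of basal duct over luminal duct (edgeR exact test) for each of the 240 peaks, by distance of the peak centre from the nearest TSS of its gene in kb, positive values lying downstream. Triangles are peaks within 500 bp of a TSS and circles all others; red is higher in basal duct, blue lower and gray not called at FDR 0.05. Blue circles fill the panels of Esr1, Prlr and Tox3, while red circles stand beside them at Greb1, Tnfrsf11a and Wnt4. Fold changes of peaks with few counts depend on the prior count.

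The 10 promoter peaks (for each gene, the peak within 500 bp of a TSS with the highest mean log2 CPM) did not share this direction. In ducts 4 of 10 were higher in basal cells (Greb1, Tnfsf11, Tnfrsf11a and Wnt4) and 1 was lower (Dnajc12), beside 43.7% higher and 11.3% lower among the 13740 promoter peaks of all genes. Promoters of Esr1, Pgr, Prlr, Tox3 and Faah were not called. In TEBs 2 were higher in basal cells (Greb1 and Tnfsf11) and 6 lower (Pgr, Prlr, Wnt4, Tox3, Faah and Dnajc12), beside 9.72% and 15.1% of all promoters. The duct result rests on the scaling for several of them. With TMM factors taken from TSS peaks, or with offsets fitted by GC content, the promoters of Prlr, Tox3 and Faah were called lower in basal duct (log2 fold changes of -0.73 to -0.42, adjusted p = 0.00091 to 0.023 in edgeR), and with GC offsets that of Pgr was too (-0.42, adjusted p = 0.00078) while that of Esr1 was called higher (0.62, adjusted p = 0.017). Scaling on TSS peaks moved the median of all peaks in this pair from -0.10 to -0.41.

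**Figure D2:**
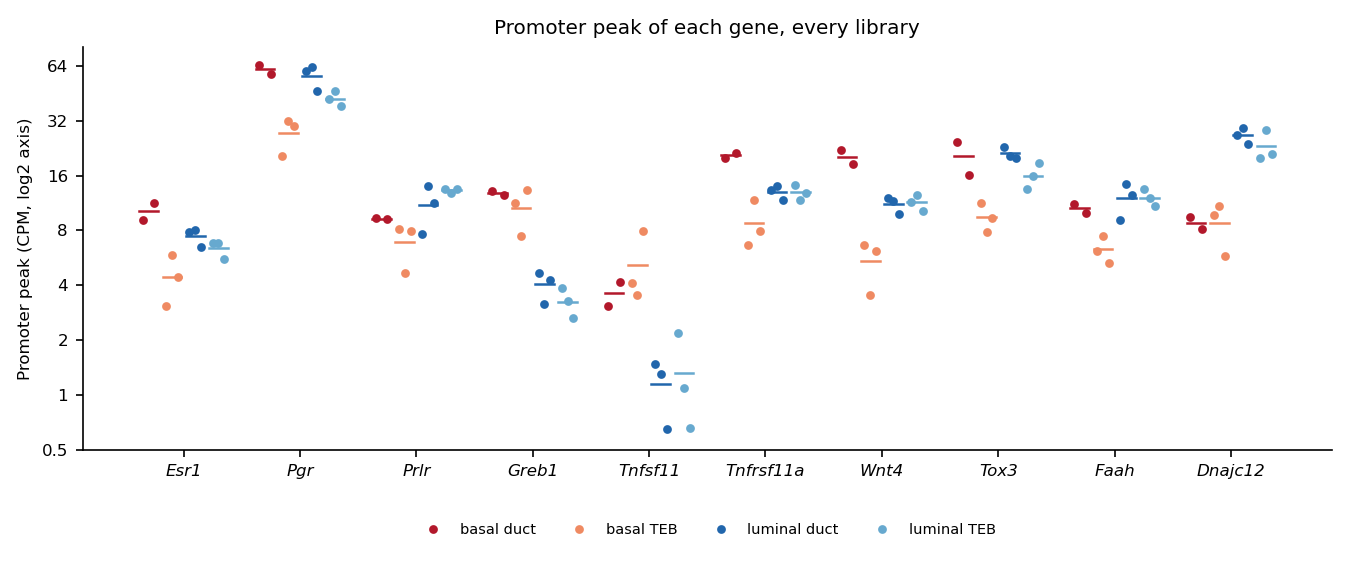
CPM of the promoter peak of each gene in each of the 11 libraries (log2 axis); points are libraries, bars are group means and colors mark the 4 groups. The basal TEB points of Pgr, Wnt4, Tox3 and Faah lie below the points of the other groups, and the basal points of Greb1 and Tnfsf11 lie above the luminal points.

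Esr1, the estrogen receptor gene, had a promoter about as open in both duct lineages, beside introns open in luminal cells. Its promoter peak (chr10:4612322-4613002, intron, starting 0.3 kb from the TSS) had 9.12 and 11.2 CPM in basal duct and 3.07, 5.87 and 4.43 in basal TEB libraries. Luminal duct libraries had 7.85, 8.02 and 6.45 and luminal TEB libraries 6.86, 6.83 and 5.60. Basal duct was above luminal duct by less than the test could call, with a log2 fold change ± SE between samples of 0.38 ± 0.18, adjusted p = 0.16 in the edgeR exact test, and the 2 lowest of the 11 libraries were basal TEB replicates 1 and 3. An intronic site 12.7 kb from the nearest TSS, measured from the nearest edge of the peak as in all distances below (chr10:4624688-4625114) had 0.456 and 0.616 CPM in basal duct and 0, 1.56 and 1.33 in basal TEB libraries. In luminal cells it reached 23.1, 19.96 and 24.7 in ducts and 21.4, 25.4 and 27.3 in TEBs. The lowest luminal library stood far above the highest basal one, and basal cells were lower in ducts (-5.43 ± 0.17, adjusted p = 9.6e-54 in the edgeR exact test) and in TEBs (-4.52 ± 0.55, adjusted p = 6.2e-23). Each basal duct library held 4 counts there. At this and other sites with few counts, the SE can be too small for the fold change beside it. The neighbouring peak whose sequence is given above (chr10:4625208-4625656) averaged 0.633 ± 0.412 CPM (SD) in basal duct, 1.25 ± 1.14 in basal TEB, 17.7 ± 2.50 in luminal duct and 20.4 ± 1.75 in luminal TEB. The most open site away from a TSS (chr10:4620611-4621865, intron) was lower in basal duct by a smaller step, at 23.1 ± 1.12 CPM (SD) in basal duct, 20.8 ± 8.85 in basal TEB, 41.9 ± 4.996 in luminal duct and 41.6 ± 8.02 in luminal TEB (-0.92 ± 0.10, adjusted p = 2.3e-07 in the edgeR exact test). A single called site ran the other way: an intronic peak 198 kb from the nearest TSS (chr10:4908231-4908821) had 3.65 and 5.85 CPM in basal duct and 7.67, 12.5 and 11.5 in basal TEB libraries. Luminal values were 2.76, 1.12 and 1.72 in ducts and 2.74, 1.09 and 1.32 in TEBs. It was higher in basal cells in ducts (1.27 ± 0.46, adjusted p = 0.0018 in the edgeR exact test) and in TEBs (2.59 ± 0.36, adjusted p = 1.6e-07). The duct call of that site ended without basal duct replicate 3 (0.94, adjusted p = 0.11 in the edgeR exact test).

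Pgr, the progesterone receptor gene and itself an estrogen target, had an open promoter in all groups (chr9:8899972-8902150, over the TSS and the start of the coding sequence), with 64.7 and 58.1 CPM in basal duct and 20.4, 32.1 and 30.1 in basal TEB libraries. The luminal duct libraries stood at 60.0, 63.2 and 46.4 and those of luminal TEB at 42.3, 46.5 and 38.5. In ducts the basal and luminal ranges overlapped (0.06 ± 0.15, adjusted p = 0.76 in the edgeR exact test). Some of its most luminal sites lay downstream of the gene. The peak 72.2 kb from the TSS (chr9:8972722-8973351, in an untranslated region of the gene Gm16485) had 1.14 and 0.770 CPM in basal duct and 1.02, 0.783 and 0 in basal TEB libraries. Luminal cells had 21.8, 22.0 and 19.1 in ducts and 12.6, 11.2 and 10.9 in TEBs. The 5 basal libraries were close to 0, and the difference was called in ducts (-4.46 ± 0.21, adjusted p = 5.9e-44 in the edgeR exact test) and in TEBs (-4.19 ± 0.40, adjusted p = 2.2e-12). The peak at chr9:8970150-8970799, 69.7 kb from the TSS, averaged 2.02 ± 1.33 CPM (SD) in basal duct, 1.95 ± 1.43 in basal TEB, 27.4 ± 5.10 in luminal duct and 22.2 ± 6.43 in luminal TEB, with calls in both structures (edgeR exact test, adjusted p = 1e-43 in ducts and 2.5e-15 in TEBs). The intronic site shown above (chr9:8903864-8904044) averaged 0.442 ± 0.464 CPM (SD) in basal duct, 1.58 ± 1.29 in basal TEB, 8.05 ± 1.62 in luminal duct and 7.79 ± 3.21 in luminal TEB. Upstream, 67.5 kb from the TSS, a peak (chr9:8831203-8832324) was higher in basal cells, with 14.8 and 16.3 CPM in basal duct and 15.3, 23.9 and 27.0 in basal TEB libraries. For luminal cells the values were 4.88, 3.54 and 3.65 in ducts and 3.02, 4.098 and 4.61 in TEBs. The 5 basal libraries all exceeded the 6 luminal ones there (ducts 1.89 ± 0.16, adjusted p = 6.6e-13 in the edgeR exact test; TEBs 2.51 ± 0.30, adjusted p = 1.5e-11).

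Prlr, the prolactin receptor gene, had 20 of 27 peaks lower in basal duct. Its main promoter (chr15:10177519-10178648, overlapping the 5′ UTR) had 9.34 and 9.24 CPM in basal duct and 8.18, 4.70 and 7.98 in basal TEB libraries. Those of luminal duct were 7.63, 13.99 and 11.4 and those of luminal TEB 13.4, 12.8 and 13.5. The duct groups were not told apart (-0.31 ± 0.25, adjusted p = 0.26 in the edgeR exact test). An intronic site 22.5 kb upstream of the internal TSS (chr15:10200925-10201531) had 0.228 and 0.154 CPM in basal duct and 0, 0.783 and 2.22 in basal TEB libraries. Luminal duct libraries had 22.5, 22.9 and 24.7 and luminal TEB libraries 24.7, 22.7 and 18.1. The basal duct values stand for 3 counts in all, too few for a fold, and the call was made in ducts (edgeR exact test, adjusted p = 2.1e-55) and in TEBs (adjusted p = 4.4e-20). The most open site away from a TSS (chr15:10191983-10192716, intron) had 1.14 and 0.924 CPM in basal duct and 3.07, 2.35 and 1.33 in basal TEB libraries. In luminal cells it reached 27.4, 23.9 and 25.8 in ducts and 19.8, 25.1 and 25.4 in TEBs. Basal cells were lower in ducts (-4.65 ± 0.12, adjusted p = 1.3e-52 in the edgeR exact test) and TEBs (-3.37 ± 0.28, adjusted p = 1.4e-16). Next to the internal TSS, the peak printed above (chr15:10223594-10223775) averaged 0.0770 ± 0.109 CPM (SD) in basal duct, 0.318 ± 0.278 in basal TEB, 2.48 ± 1.03 in luminal duct and 2.99 ± 1.09 in luminal TEB and rested on 1 count in basal duct (edgeR exact test, adjusted p = 1.2e-07). A flanking site upstream (chr15:10146630-10146950) was most open in basal TEB, with 1.71 and 1.23 CPM in basal duct and 6.13, 5.48 and 6.21 in basal TEB libraries. Luminal values were 0.636, 2.05 and 1.505 in ducts and 1.10, 1.64 and 0.988 in TEBs. All 3 basal TEB libraries exceeded the other 8 (against luminal TEB 2.20 ± 0.15, adjusted p = 0.0002 in the edgeR exact test; against basal duct 1.97 ± 0.20, adjusted p = 0.0047), and 1.6% of its bases are soft-masked, that is, annotated as repeat. The latter call ended without basal duct replicate 1 (adjusted p = 0.27 in the edgeR exact test) and without replicate 3 (1.75, adjusted p = 0.23).

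**Figure D3:**
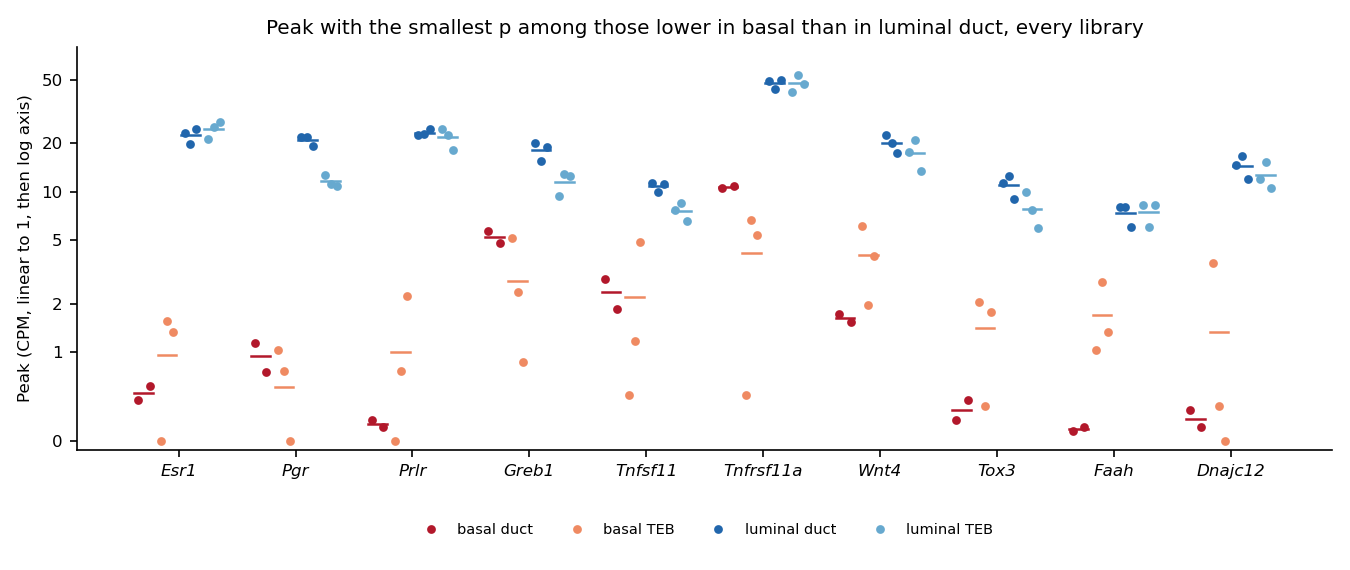
CPM in each of the 11 libraries at the peak of each gene with the smallest p among those lower in basal than in luminal duct (axis linear up to 1 CPM, then logarithmic); points are libraries and bars are group means. The luminal duct and luminal TEB points lie above the basal duct and basal TEB points at all 10 genes, a direction that the choice of peaks fixes in ducts.

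The Greb1 promoter was more open in basal than in luminal cells. The promoter peak (chr12:16800341-16801327) had 13.1 and 12.5 CPM in basal duct and 11.2, 7.43 and 13.3 in basal TEB libraries. The luminal duct libraries stood at 4.67, 3.17 and 4.299 and those of luminal TEB at 3.84, 3.28 and 2.63. No basal value fell into the luminal range, in ducts (1.61 ± 0.16, adjusted p = 3.6e-09 in the edgeR exact test) or in TEBs (1.68 ± 0.26, adjusted p = 0.00019). The intronic site with the ERE letters (chr12:16760147-16760800), 2.91 kb upstream of an internal TSS, had 10.4 and 11.6 CPM in basal duct and 3.58, 10.2 and 4.43 in basal TEB libraries. Luminal cells had 1.06, 2.05 and 2.79 in ducts and 1.37, 1.37 and 2.31 in TEBs. It was higher in basal than in luminal duct (2.40 ± 0.35, adjusted p = 7.1e-14 in the edgeR exact test). The same comparison in TEBs (1.88 ± 0.46, adjusted p = 0.003 in the edgeR exact test) ended without basal TEB replicate 2 (1.27, adjusted p = 0.12). An upstream peak (chr12:16850557-16851249, in an exon of Gm36495) ran the other way, averaging 5.24 ± 0.652 CPM (SD) in basal duct, 2.78 ± 2.15 in basal TEB, 18.2 ± 2.41 in luminal duct and 11.6 ± 1.94 in luminal TEB (-1.84 ± 0.16, adjusted p = 5e-14 in the edgeR exact test in ducts). Luminal cells of TEBs and ducts differed at an intronic site (chr12:16790481-16791024) with 2.73 and 2.93 CPM in basal duct and 0, 1.17 and 3.10 in basal TEB libraries. For luminal cells the values were 12.7, 10.4 and 13.8 in ducts and 6.04, 4.64 and 4.94 in TEBs. The 3 luminal TEB values lay below the 3 luminal duct values (-1.23 ± 0.15, adjusted p = 0.0041 in the edgeR exact test), and basal cells were lower still in ducts (-2.17 ± 0.13, adjusted p = 1.7e-13).

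Tnfsf11, which encodes the paracrine ligand RANKL, had low accessibility and few peaks. Its promoter (chr14:78307745-78308303, over the TSS) had 3.08 and 4.16 CPM in basal duct and 4.09, 3.52 and 7.98 in basal TEB libraries. Those of luminal duct were 1.48, 1.31 and 0.645 and those of luminal TEB 2.19, 1.09 and 0.659. The basal libraries were all above the luminal ones (ducts 1.55 ± 0.35, adjusted p = 0.0013 in the edgeR exact test; TEBs 1.92 ± 0.45, adjusted p = 0.0037), although the TEB call ended without basal TEB replicate 3 (adjusted p = 0.082). An intronic peak (chr14:78287968-78288638) was higher in basal duct in the same way, at 8.45 ± 0.0289 CPM (SD) in basal duct, 4.63 ± 1.16 in basal TEB, 1.495 ± 0.224 in luminal duct and 1.59 ± 0.742 in luminal TEB (2.42 ± 0.10, adjusted p = 1e-11 in the edgeR exact test). A site 62.8 kb downstream of the TSS (chr14:78244810-78245267) had the reverse pattern, with 2.85 and 1.85 CPM in basal duct and 0.511, 1.17 and 4.88 in basal TEB libraries. Luminal duct libraries had 11.2, 9.89 and 11.2 and luminal TEB libraries 7.68, 8.47 and 6.59. It was luminal-high in ducts (-2.21 ± 0.27, adjusted p = 6.3e-13 in the edgeR exact test) and TEBs (-1.76 ± 0.67, adjusted p = 0.0016). One basal TEB library, replicate 3, stood above the other 2 at that site.

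Tnfrsf11a encodes RANK, on which RANKL acts. Its promoter (chr1:105779930-105781049) had 20.1 and 21.3 CPM in basal duct and 6.65, 11.7 and 7.98 in basal TEB libraries. In luminal cells it reached 13.4, 13.99 and 11.8 in ducts and 14.3, 11.8 and 12.8 in TEBs. Basal duct was above luminal duct (0.59 ± 0.09, adjusted p = 0.0041 in the edgeR exact test), a call lost with TMM factors from TSS peaks (0.28, adjusted p = 0.16). In the edgeR quasi-likelihood test it was also lost with loess offsets (0.36, adjusted p = 0.055) and with GC offsets (0.25, adjusted p = 0.2). The basal TEB values lay below the others and were not called against luminal TEB (-0.53 ± 0.25, adjusted p = 0.2 in the edgeR exact test). Beyond the 3′ end, 85.99 kb from the TSS, lay a strongly luminal site (chr1:105866704-105867526), whose sequence is shown above, with 10.48 and 10.8 CPM in basal duct and 0.511, 6.65 and 5.32 in basal TEB libraries. Luminal values were 48.8, 43.7 and 49.6 in ducts and 41.7, 53.3 and 47.1 in TEBs. The basal and luminal libraries did not overlap (ducts -2.22 ± 0.07, adjusted p = 3.5e-31 in the edgeR exact test; TEBs -3.42 ± 0.84, adjusted p = 2.1e-23). At 97.0 kb from the TSS, a peak (chr1:105877747-105878178) was higher in basal duct, at 6.27 ± 0.155 CPM (SD) in basal duct, 2.94 ± 0.663 in basal TEB, 1.04 ± 0.416 in luminal duct and 1.75 ± 0.192 in luminal TEB (2.54 ± 0.29, adjusted p = 1.4e-09 in the edgeR exact test).

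Wnt4, a Wnt ligand induced by progesterone, had strongly open sites of both lineages in its locus. Upstream, 75.8 kb from the TSS, a peak (chr4:137200380-137201672, intergenic) had 59.5 and 63.6 CPM in basal duct and 38.9, 46.6 and 41.7 in basal TEB libraries. The luminal duct libraries stood at 2.97, 3.54 and 3.44 and those of luminal TEB at 5.21, 3.01 and 3.29. The basal libraries lay far above all luminal ones (ducts 4.14 ± 0.09, adjusted p = 3.5e-82 in the edgeR exact test; TEBs 3.45 ± 0.23, adjusted p = 1.5e-26). Inside the gene, 1.84 kb from the TSS, an intronic peak (chr4:137279333-137279772) ran the opposite way, with 1.71 and 1.54 CPM in basal duct and 6.13, 1.96 and 3.99 in basal TEB libraries. Luminal cells had 22.5, 20.1 and 17.4 in ducts and 17.6, 21.0 and 13.5 in TEBs. Luminal cells were higher in ducts (-3.66 ± 0.12, adjusted p = 8.5e-35 in the edgeR exact test) and TEBs (-2.15 ± 0.42, adjusted p = 1.7e-07). The promoter (chr4:137276788-137277762) had 22.2 and 18.5 CPM in basal duct and 6.65, 3.52 and 6.21 in basal TEB libraries. For luminal cells the values were 12.1, 11.6 and 9.89 in ducts and 11.5, 12.6 and 10.2 in TEBs. In ducts basal cells were the higher (0.81 ± 0.15, adjusted p = 0.00015 in the edgeR exact test), a call lost with GC offsets (0.32, adjusted p = 0.1 in the edgeR quasi-likelihood test). In TEBs they were the lower (-1.09 ± 0.26, adjusted p = 0.013 in the edgeR exact test), a call lost without basal TEB replicate 2 (-0.82, adjusted p = 0.082), luminal TEB replicate 1 (-1.07, adjusted p = 0.051) or luminal TEB replicate 2 (-1.02, adjusted p = 0.064).

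Tox3 combined an open promoter with distal sites that were nearly closed in basal duct. The promoter (chr8:90347556-90348944) had 24.6 and 16.2 CPM in basal duct and 11.2, 7.83 and 9.31 in basal TEB libraries. Those of luminal duct were 23.1, 20.5 and 19.99 and those of luminal TEB 13.4, 15.8 and 18.8. The duct lineages overlapped (-0.10 ± 0.29, adjusted p = 0.63 in the edgeR exact test). All 13 of its other peaks were lower in basal duct, 8 of them in TEBs as well. The upstream site shown above (chr8:90391463-90392152, 43.1 kb from the TSS) had 0.228 and 0.462 CPM in basal duct and 2.04, 0.391 and 1.77 in basal TEB libraries. Luminal duct libraries had 11.2, 12.5 and 9.03 and luminal TEB libraries 9.88, 7.65 and 5.93. It was lower in basal cells of TEBs (-2.51 ± 0.46, adjusted p = 2.1e-05 in the edgeR exact test) and of ducts (adjusted p = 1.2e-27, with 5 basal duct counts). A peak 81.7 kb upstream (chr8:90429996-90430621) had 0.798 and 0.616 CPM in basal duct and 1.02, 3.13 and 2.66 in basal TEB libraries. In luminal cells it reached 11.4, 12.5 and 8.38 in ducts and 10.7, 10.9 and 8.56 in TEBs. Here too luminal cells were higher in ducts (-3.93 ± 0.21, adjusted p = 8.8e-24 in the edgeR exact test) and TEBs (-2.08 ± 0.38, adjusted p = 1.4e-05).

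Faah showed the same arrangement on a smaller scale. Its promoter (chr4:116017234-116018033) had 11.2 and 10.01 CPM in basal duct and 6.13, 7.43 and 5.32 in basal TEB libraries. Luminal values were 9.12, 14.4 and 12.5 in ducts and 13.4, 12.0 and 10.9 in TEBs. There was no call in ducts (-0.24 ± 0.20, adjusted p = 0.36 in the edgeR exact test). A peak in an untranslated part of the gene (chr4:115996768-115997220) had 0.114 and 0.154 CPM in basal duct and 1.02, 2.74 and 1.33 in basal TEB libraries. The luminal duct libraries stood at 8.06, 8.02 and 6.02 and those of luminal TEB at 8.23, 6.01 and 8.23. Basal duct rested on 2 counts (edgeR exact test, adjusted p = 1.4e-20 in ducts and 0.00022 in TEBs). The most open site away from a TSS (chr4:116007669-116008271, in the coding region) averaged 1.65 ± 0.0702 CPM (SD) in basal duct, 4.45 ± 2.68 in basal TEB, 9.71 ± 1.35 in luminal duct and 8.89 ± 2.86 in luminal TEB (-2.61 ± 0.13, adjusted p = 2.5e-14 in the edgeR exact test in ducts).

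Dnajc12 was luminal at its promoter too. The peak at the annotated protein-coding TSS used here (chr10:63386436-63386856) had 9.46 and 8.16 CPM in basal duct and 9.71, 10.96 and 5.76 in basal TEB libraries. Luminal cells had 26.9, 29.1 and 23.9 in ducts and 20.03, 28.7 and 21.1 in TEBs. Luminal libraries exceeded basal ones throughout (ducts -1.65 ± 0.12, adjusted p = 2.6e-15 in the edgeR exact test; TEBs -1.39 ± 0.30, adjusted p = 3.9e-05). A peak 3.55 kb upstream of that TSS, at the 5′ end of the gene model (chr10:63382359-63383009), was open in all groups at 19.7 ± 3.62 CPM (SD) in basal duct, 13.5 ± 0.496 in basal TEB, 21.5 ± 1.98 in luminal duct and 17.8 ± 2.12 in luminal TEB, with no call between lineages in ducts (-0.18 ± 0.19, adjusted p = 0.39 in the edgeR exact test). The intronic site 1.98 kb downstream of the TSS (chr10:63388543-63388951) had 0.342 and 0.154 CPM in basal duct and 3.58, 0.391 and 0 in basal TEB libraries. For luminal cells the values were 14.6, 16.6 and 12.0 in ducts and 12.1, 15.3 and 10.54 in TEBs. It was lower in basal cells of TEBs (-3.35 ± 0.79, adjusted p = 3.3e-10 in the edgeR exact test) and of ducts (adjusted p = 7.7e-37, with 4 basal duct counts).

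CPM was also summed over the peaks of each locus. Away from promoters, luminal duct exceeded basal duct 16.4 times at Tox3 (3.42 and 3.85 CPM in basal duct; 61.3, 68.3 and 49.4 in luminal duct), 4.28 times at Prlr (30.4 and 30.0; 126, 125 and 137), 2.92 times at Pgr (40.2 and 43.1; 129, 127 and 109), 2.87 times at Esr1 (76.1 and 78.3; 209, 243 and 212), 2.36 times at Faah and 1.69 times at Dnajc12. The duct groups did not overlap at any of these 6 genes. Summed over own promoter peaks, the same ratio was 1.04 at Tox3, 1.44 at Prlr, 0.994 at Pgr, 0.841 at Esr1, 1.13 at Faah and 3.02 at Dnajc12. Luminal duct thus exceeded basal duct by more away from promoters than at them at Tox3, Prlr, Pgr, Esr1 and Faah. At Dnajc12 it did so by less, but that order rests on the TSS used. The peak at the 5′ end of its gene model, open in all groups, was counted away from promoters. At Greb1, Tnfsf11 and Tnfrsf11a the luminal over basal duct ratio was 1.29, 1.15 and 1.61 away from promoters and 0.316, 0.317 and 0.531 over promoter peaks, and the duct groups overlapped away from promoters at Tnfsf11. Wnt4 had more in basal duct in both sums, at 1.39 times luminal duct away from promoters (236 and 257 CPM; 180.5, 194 and 156) and 1.82 times at its promoter. These sums describe the peaks counted and carry no test.

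**Figure D4:**
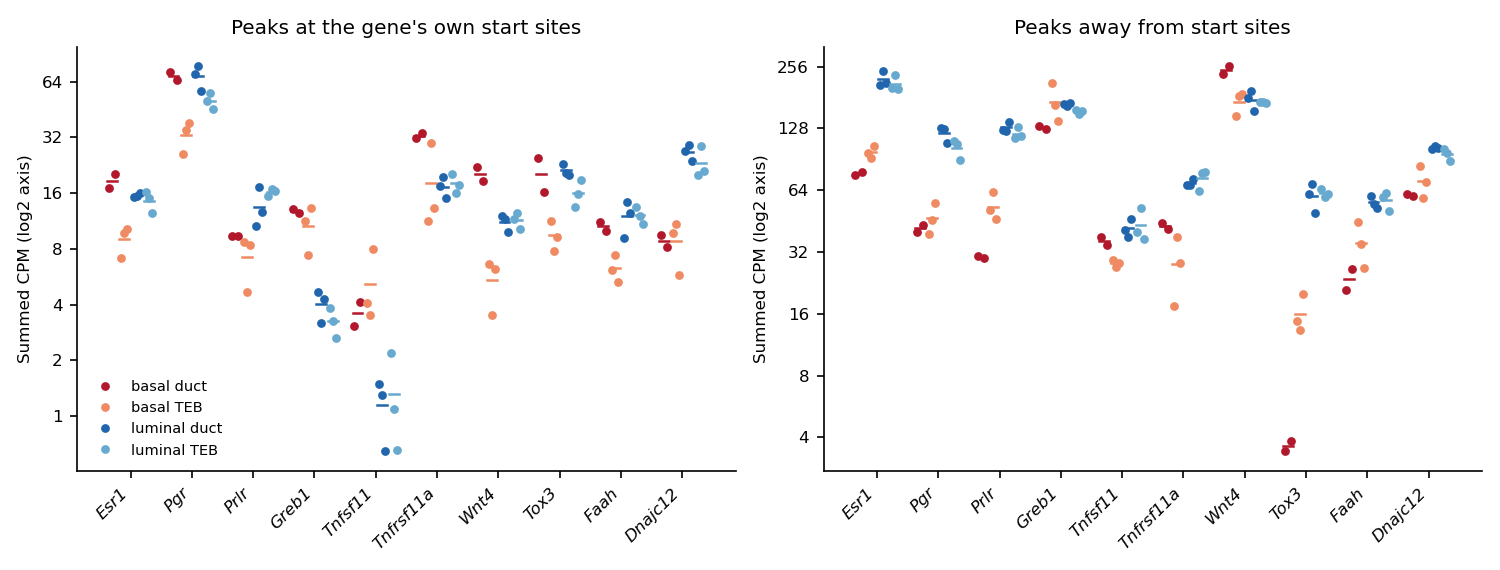
CPM summed over the peaks within 500 bp of the gene's own TSSs (left) and over peaks more than 500 bp from any TSS (right), for each gene and library (log2 axes). Points are libraries and bars group means. TSSs are those of protein-coding transcripts, so the peak at the 5′ end of the Dnajc12 gene model counts on the right. On the right the luminal points of Esr1, Pgr, Prlr and Tox3 lie far above the basal duct points; on the left these groups lie closer together.

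In TEBs the lineage differences had the same direction at most sites, with fewer calls. In simulated counts, 2-fold increases and decreases were recovered at 7 and 3 of 50 peaks between basal and luminal TEB. In ducts they were recovered at 35 and 17 of 50. The simulation changed 50 of 153396 peaks by each fold, far fewer than were called in the data. Its shares therefore do not give the power of the real tests. The numbers of calls are not to be compared between TEBs and ducts. Of 240 peaks, 74 were lower and 25 higher in basal TEB than in luminal TEB, beside 20.8% and 16.6% of all tested peaks, and the median log2 fold change was -0.67 beside -0.07. That is 30.8% and 10.4% of the 240. Called in both structures were 63 luminal-high and 17 basal-high peaks, while 2 had opposite calls. The latter were the Wnt4 promoter and an intronic Greb1 site (chr12:16747750-16747981) with 17.9 and 10.9 CPM in basal duct and 91.0, 39.1 and 31.9 in basal TEB libraries. Those of luminal duct were 20.4, 24.8 and 28.4 and those of luminal TEB 32.1, 23.8 and 30.6. There basal TEB exceeded luminal TEB (0.89 ± 0.46, adjusted p = 0.0085 in the edgeR exact test), whereas basal duct was below luminal duct (-0.81 ± 0.36, adjusted p = 7.4e-05). Replicate 1 of basal TEB was well above the other 2 at this site, and the TEB call ended without it (0.32, adjusted p = 0.32 in the edgeR exact test) or without luminal TEB replicate 2 (0.76, adjusted p = 0.095), and the duct call without basal duct replicate 3 (-0.49, adjusted p = 0.096). The 5 basal-low TEB promoter calls of Pgr, Prlr, Wnt4, Tox3 and Faah each ended on leaving out 1 library, with adjusted p-values of 0.051 to 0.21 in those fits, and that of Dnajc12 did not. That of Tox3 was lost in 10 of 14 alternatives. Among them were factors from TSS peaks (-0.67, adjusted p = 0.068), no TMM (-0.69, adjusted p = 0.058) and filterByExpr (-0.59, adjusted p = 0.078) in the edgeR exact test. Loess offsets ended it in the edgeR quasi-likelihood test (-0.66, adjusted p = 0.06). In DESeq2 the calls of Tox3, Prlr and Faah ended (adjusted p = 0.052 to 0.083), and with filterByExpr that of Pgr (-0.44, adjusted p = 0.053 in edgeR).

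**Figure D5:**
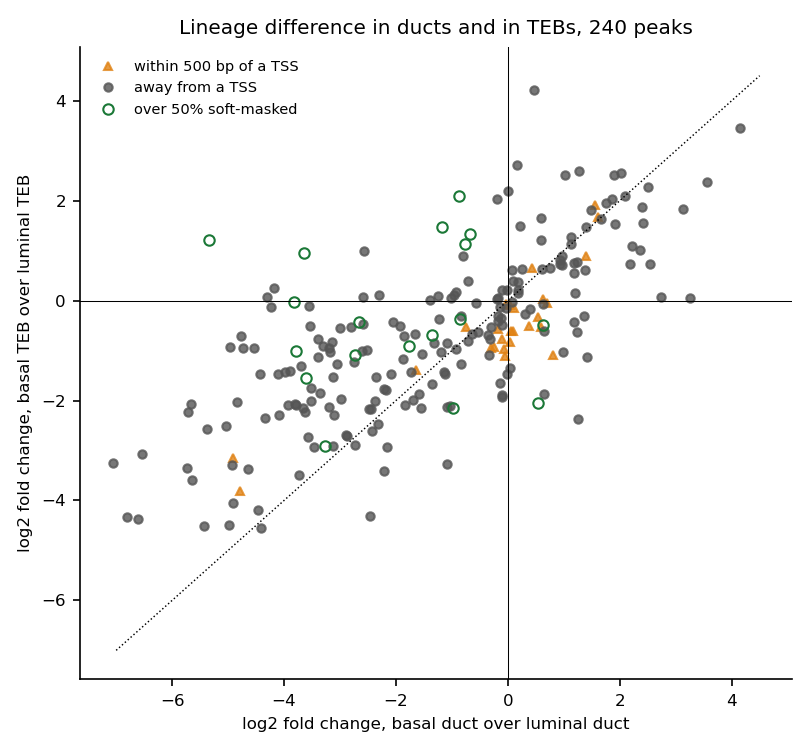
Log2 fold change of basal TEB over luminal TEB against that of basal duct over luminal duct for the 240 peaks (edgeR exact tests); the dotted line marks equal values. Orange triangles are peaks within 500 bp of a TSS, gray circles other peaks and open green circles peaks with over 50% soft-masked bases. Most gray points lie in the lower left, and fold changes of peaks with few basal counts depend on the prior count.

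Fewer of these sites were called between basal cells of TEBs and ducts, a pair in which changes were harder to detect. In the simulated counts described above, with few peaks changed, 2-fold increases and decreases were recovered there at 2 and 0 of 50 peaks. Between basal and luminal duct they were recovered at 35 and 17 of 50. Of 239 peaks tested, 18 were lower and 16 higher in basal TEB than in basal duct, beside 9.73% and 8.22% of all tested peaks. Of the 10 promoter peaks, 5 were lower (Esr1, Pgr, Tnfrsf11a, Wnt4 and Tox3), beside 34.9% of all promoter peaks. The Wnt4 promoter changed the most (-1.92 ± 0.30, adjusted p = 1.4e-05 in the edgeR exact test), from 22.2 and 18.5 CPM in basal duct to 6.65, 3.52 and 6.21 in basal TEB. Its call ended without basal duct replicate 1 (-1.75, adjusted p = 0.061 in the edgeR exact test) and with no other alternative. The calls of Esr1 (-1.15 ± 0.28, adjusted p = 0.026 in the edgeR exact test), Pgr (-1.15 ± 0.22, adjusted p = 0.00091), Tnfrsf11a (-1.21 ± 0.23, adjusted p = 0.0037) and Tox3 (-1.13 ± 0.35, adjusted p = 0.0095) ended with TMM factors from TSS peaks, where their log2 fold changes were -0.52, -0.49, -0.57 and -0.45. They also ended with GC offsets and on leaving out either basal duct library. That of Esr1 was lost in 10 of 13 alternatives, among them DESeq2, no TMM, loess offsets and filterByExpr. It also ended without basal TEB replicate 1 or 3 (adjusted p = 0.082 and 0.1 in the edgeR exact test). DESeq2 and loess offsets ended those of Tnfrsf11a and Tox3 too, and filterByExpr that of Tox3. The split of member calls moved with the scaling: 16 higher and 18 lower became 32 and 2 with factors from TSS peaks, 23 and 3 with GC offsets, 19 and 11 without TMM, 14 and 14 with loess offsets and 13 and 6 in DESeq2. Over all peaks the share of calls that were higher was 45.8%, and 90.2%, 72.0%, 61.9%, 54.9% and 62.5% under these alternatives. Factors from TSS peaks moved the median of all peaks from 0.02 to 0.67. Without basal duct replicate 1 the counts were 1 higher and 0 lower, and without replicate 3 they were 2 and 3.

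Several sites higher in basal TEB lay in repeats. Of the 16, 6 were among the 18 peaks with over 50% soft-masked bases, and without those peaks 10 remained. Over all 13160 such peaks, 57.4% were higher in basal TEB than in basal duct. The Tox3 site 40.4 kb upstream (chr8:90388786-90388938) had 0.114 and 0 CPM in basal duct and 3.58, 2.35 and 3.99 in basal TEB libraries. Luminal duct libraries had 1.06, 1.68 and 0.215 and luminal TEB libraries 1.92, 0.546 and 2.63. The Tnfsf11 site 31.3 kb upstream (chr14:78339363-78339663) had 0.228 and 0.616 CPM in basal duct and 6.65, 1.96 and 4.88 in basal TEB libraries. In luminal cells it reached 0.848, 0.933 and 0.860 in ducts and 1.37, 1.37 and 1.98 in TEBs. Both are 100% soft-masked. So is the Esr1 site at chr10:4917798-4918217, which had 0.684 and 0.924 CPM in basal duct and 12.3, 1.96 and 2.66 in basal TEB libraries. Luminal values were 1.06, 0.373 and 2.58 in ducts and 3.29, 1.09 and 2.96 in TEBs. At all 3 sites the basal TEB libraries stood above the basal duct libraries. Of sites with few repeat bases, the Greb1 flank (chr12:16804132-16804368, 10.1% soft-masked) had 0.684 and 2.00 CPM in basal duct and 6.13, 7.43 and 4.88 in basal TEB libraries. The luminal duct libraries stood at 0.636, 0.560 and 1.505 and those of luminal TEB at 0.549, 0 and 0.329. It was higher in basal TEB than in basal duct (2.24 ± 0.56, adjusted p = 0.0024 in the edgeR exact test) and luminal TEB (adjusted p = 1.5e-07, with 3 luminal TEB counts). The basal comparison ended without basal duct replicate 1 (1.63, adjusted p = 0.42 in the edgeR exact test). The intronic Greb1 site described above rose as well (1.89 ± 0.59, adjusted p = 1.9e-05 in the edgeR exact test) and kept its call in all 13 alternatives, with 44.8% of its bases soft-masked. How far mapping in repeats and the lower depth of the basal TEB libraries enter these values was not tested.

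Luminal cells of TEBs and ducts were hardly told apart here. Of 240 peaks, 0 were higher and 3 lower in luminal TEB than in luminal duct (edgeR exact test), beside 0.311% and 0.455% of all tested peaks. At an unadjusted p under 0.05 there were 7 higher and 18 lower. DESeq2 called 0 higher and 1 lower, but it adjusted p for only 7670 of 153394 peaks in this pair. The 3 were the Greb1 intronic site given above, the Pgr site downstream of the gene at chr9:8972722-8973351 (-0.86 ± 0.09, adjusted p = 0.011 in the edgeR exact test; 21.8, 22.0 and 19.1 CPM in luminal duct against 12.6, 11.2 and 10.9 in luminal TEB) and a peak at the promoter of Sirt1, a neighbour of Dnajc12. The Greb1 call held in all 13 alternatives, and the Pgr call ended without luminal duct replicate 1 (-0.83, adjusted p = 0.067 in the edgeR exact test) or 2 (-0.82, adjusted p = 0.088) and without luminal TEB replicate 1 (-0.91, adjusted p = 0.06) or 3 (-0.81, adjusted p = 0.1). The promoters of Pgr and Tox3 were lower by 0.41 on the log2 scale in luminal TEB without passing the test (Pgr SE 0.16, adjusted p = 0.2; Tox3 SE 0.15, adjusted p = 0.38; edgeR exact test). With factors from TSS peaks the share of higher calls over all peaks was 80.1% in place of 40.6%. In DESeq2 it was 4.4%, among the 7670 peaks with an adjusted p only, so it is not comparable. With the replicate number as a block, 0 of the 240 peaks were higher and 5 lower in luminal TEB. Over all peaks the block raised the calls from 477 higher and 698 lower to 1049 and 1702. Whether same-numbered libraries were paired is not known.

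The difference between the lineage contrasts of TEBs and ducts was tested as an interaction in the edgeR quasi-likelihood fit over 11 libraries, for the 204 of 240 peaks that passed its filter on low counts. The basal over luminal ratio was greater in TEBs at 22 peaks and smaller at 8, beside 7.51% and 6.5% of all tested peaks. With factors from TSS peaks these became 33 and 2, and the share of higher calls over all peaks 82.5% in place of 53.6%. By this edgeR quasi-likelihood test smaller ratios were found at the promoters of Wnt4 (-1.89, adjusted p = 0.00085) and Tnfrsf11a (-1.12, adjusted p = 0.024), the latter lost in 8 of 16 alternatives and the former in none. Without basal duct replicate 1 the counts were 3 and 1, and without replicate 3 they were 11 and 2.

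Other genes of these pathways were taken from a list of 50, of which 46 have a promoter peak (Ly6a, Hsd17b1, Sult1e1 and Cyp19a1 do not). This list was also chosen with earlier results of these data known. In ducts 24 promoters were higher and 7 lower in basal cells (52.2% and 15.2%, beside 43.7% and 11.3% of all promoters), with a median log2 fold change of 0.36 beside 0.31 over all promoters. These counts turn with the scaling, to 15 and 16 with factors from TSS peaks and to 14 and 17 with GC offsets. Among those with the smallest p were Egfr, the receptor of amphiregulin (1.68 ± 0.07 SE, adjusted p = 1.6e-22) and the transcription factor gene Cebpb (1.17 ± 0.10, adjusted p = 7.7e-14), by the edgeR exact test. On the luminal side they were Foxa1, a pioneer factor for the estrogen receptor (-2.42 ± 0.26, adjusted p = 5e-36), the alveolar regulator Elf5 (-2.17 ± 0.42, adjusted p = 1.8e-08) and the surface marker Prom1 (-0.84 ± 0.04, adjusted p = 6.3e-06), by the same edgeR exact test. In TEBs 2 were higher (Egfr, 1.10 ± 0.16, and Cebpb, 0.59 ± 0.21) and 9 lower, among them Foxa1 (-3.37 ± 0.18), Prom1 (-1.37 ± 0.21) and the NF-kappaB subunit gene Nfkb1 (-0.90 ± 0.25). That is 4.35% and 19.6%, beside 9.72% and 15.1% of all promoters. The Cebpb call ended without basal TEB replicate 2 (0.42, adjusted p = 0.15 in the edgeR exact test) or any 1 of the luminal TEB replicates (adjusted p = 0.067 to 0.24), and that of Nfkb1 without luminal TEB replicate 1 (-0.70, adjusted p = 0.11). Between basal TEB and basal duct 24 were lower, beside 34.9% of all promoters, with Nfkb1 (-1.45 ± 0.13), the growth factor receptor Igf1r (-1.38 ± 0.35) and the glucocorticoid receptor Nr3c1 (-1.16 ± 0.27) of smallest p. Without basal duct replicate 1 there were 0 lower and without replicate 3 there were 5, and with factors from TSS peaks or GC offsets 2. In luminal cells Igf1r was the single call, lower in TEBs (-0.70 ± 0.19, adjusted p = 0.023, edgeR exact test), and it ended without luminal duct replicate 1 or 2 and without luminal TEB replicate 1 or 3 (adjusted p = 0.07 to 0.26).

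Sequence letters were counted at the luminal-high and basal-high sites of the 10 genes, with no test. Away from promoters, the forkhead motif was found in 11 of 118 sites lower in basal duct (9.32%) and in none of the 37 higher ones, beside 12.9% and 2.70% of all such peaks. AP-1 was found in 44 of the 118 (37.3%) and 4 of the 37 (10.8%), beside 37.9% and 22.8%, and TEAD in 20 (16.9%) and 14 (37.8%), beside 18.9% and 28.3%. STAT letters were in 16 (13.6%) and 4 (10.8%), beside 9.81% and 11.2%, and the GATA letters AGATAA in 20 (16.9%) and 6 (16.2%), beside 16.02% and 13.4%. The ERE was found at 1 of 240 peaks and the progesterone response element GNACANNNTGTNC at 1, in Tox3, beside 0.103% and 0.689% of all peaks. Among all peaks away from promoters, the ERE was found in 0.233% of those lower in basal duct and 0.0314% of those higher, whereas the match in Greb1 lies at a basal-high site. Median GC content was 46.1% in the 118 and 50.5% in the 37, and median width 302 and 475 bp. That a motif was not found says only that those letters are not in the central 300 bases.

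The promoters whose pattern over the 11 libraries was most like that of a receptor were ranked by Pearson correlation of log2 CPM, as a description only, since the libraries share depth and GC effects. For Esr1 they were Igsf3 (0.973), Anxa4 (0.970) and Map2 (0.966), for Pgr Cul1 (0.984), Dync1h1 (0.982) and Ddx21 (0.982), and for Prlr Fxyd5 (0.892), P2ry13 (0.872) and Cutal (0.863). The first 6 were highest on average in basal duct and lowest in basal TEB, the pattern of the Esr1 and Pgr promoters, and the last 3 were higher in both luminal groups than in both basal groups, that of Prlr.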

How the data were processed

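ATAC-seq was performed on sorted basal and luminal cells of dissected TEBs and ducts. The authors trimmed reads, mapped them to mm10 with Bowtie2 (version 2.3.4.3 in the submitters' processing notes), removed duplicates, called peaks with MACS2 once per population over its pooled replicates, joined peaks that overlapped, removed blacklisted regions and deposited read counts per merged peak for each of 11 libraries. A peak is therefore present wherever 1 of the 4 populations had one, and no shift for the transposase is stated in the methods.

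From these counts, each pair of groups was compared with the exact test of edgeR 4.0.16 (R 4.3.3) over all peaks with a count, with TMM factors and tagwise dispersions estimated within the pair and Benjamini-Hochberg adjustment (FDR 0.05). The interaction used the edgeR quasi-likelihood test after filterByExpr. CPM was scaled with TMM over 11 libraries, and the SE of a log2 fold change is that between libraries on log2 CPM. That log2 CPM carries a larger prior count than the fold change, so the SE can be too small where counts are few. TSSs (41421 of protein-coding genes, GENCODE vM21) and soft-masked bases came from mm10 annotation and sequence, a promoter reaching 500 bp from a TSS. Alternatives were the quasi-likelihood test, DESeq2 1.42.0, other scalings, filterByExpr, a 50 kb window, a replicate block, leaving out each library and, chosen after seeing the data, leaving out peaks over 50% soft-masked. Fits with loess offsets, GC offsets or the replicate block used the quasi-likelihood test. The fits were tested on simulated counts. Few peaks were changed in them, all drawn from peaks with more counts, so the shares recovered do not give the power of the real tests.

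Genes are named by their promoter peak, by the called peak of smallest p in each comparison and direction outside other genes' promoters and by the most open peak away from TSSs. Other sites were chosen after their values were seen and are said to be so. Pathway genes are the 3 of smallest p in each direction, except that a result withheld from the text is not reported here. The members and lists were chosen with earlier results of these data known. The study describes the libraries as biological replicates. No source used here says whether same-numbered libraries come from the same mice, and the numbers were not taken as pairs. The matrix of all libraries holds the same counts and was not used. Intervals of CPM are not given; the lower depth of basal TEB (1821942 to 2489582 counts) makes 1 count there worth more CPM than in basal duct.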

Additional observations from a re-analysis of the deposited data

Results flagged for a closer look

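The basal over luminal ratio differed between TEBs and ducts at 15 of the named peaks. The test was the interaction term of the edgeR quasi-likelihood test over 11 libraries. Over all tested peaks, 7.51% had a greater and 6.5% a smaller ratio in TEBs. Many named peaks were chosen by smallest p in comparisons of these same libraries. Their number is therefore a description and no measure of how common such differences are. The values below are the log2 ratio in TEBs minus that in ducts. The ratio was smaller in TEBs at the promoters of Wnt4 (-1.89, adjusted p = 0.00085) and Tnfrsf11a (-1.12, adjusted p = 0.024), at the Tnfrsf11a site beyond the 3′ end (-1.20, adjusted p = 0.029), at a peak 1.36 kb upstream of Esr1 (-1.77, adjusted p = 0.034) and at a peak 43.5 kb upstream of Tnfsf11 (-1.82, adjusted p = 0.0096), all in the edgeR quasi-likelihood test.

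It was greater in TEBs at 10 peaks. These were the upstream flank of Prlr (2.22, adjusted p = 0.048), the Greb1 flank (3.83, adjusted p = 0.014) and intron (1.71, adjusted p = 0.0009), the Wnt4 intron (1.5, adjusted p = 0.039) and a Wnt4 site 13.1 kb upstream (3.73, adjusted p = 0.0026) in the edgeR quasi-likelihood test. In Tox3 they were the upstream sites at chr8:90391463-90392152 (2.47, adjusted p = 0.044) and chr8:90429996-90430621 (1.84, adjusted p = 0.047) and the repeat site at chr8:90388786-90388938 (4.49, adjusted p = 0.017), and in Faah the sites at chr4:115996768-115997220 (3.53, adjusted p = 0.0079) and chr4:116007669-116008271 (1.60, adjusted p = 0.041), by the same edgeR quasi-likelihood test. Where basal duct holds 3 or fewer counts, as at the Wnt4 upstream site (1 and 2 counts), the Tox3 repeat site and the first Faah site, the value depends on the prior count. Of 16 alternatives, 12 ended the calls at the Prlr flank and at chr8:90429996-90430621, including DESeq2 and the replicate block (2.08, adjusted p = 0.082 and 1.74, adjusted p = 0.07, edgeR quasi-likelihood test). For the other Tox3 upstream site 10 ended it, for the Wnt4 intron and the Tnfrsf11a site beyond the 3′ end 9 each, and for the Tnfrsf11a promoter, the Esr1 peak and the second Faah site 8 each. The calls at the Tox3 repeat site, the Greb1 flank, the upstream sites of Tnfsf11 and Wnt4 and the first Faah site ended under 1 to 3. Those at the Wnt4 promoter and the Greb1 intron held under all 16.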

How the results depend on the processing

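Of the named calls, 37 of 44 between basal and luminal duct kept their direction and side of the threshold under every alternative that gave a value, as did 30 of 47 between basal and luminal TEB, 1 of 24 between basal TEB and basal duct, 1 of 3 between luminal TEB and luminal duct and 2 of 15 of the interaction. Many named calls are those of smallest p for their gene, so these shares do not hold for all called peaks. Over the 240 peaks, 44 higher and 122 lower in basal than luminal duct became 34 and 110 in DESeq2. Offsets fitted in GC bins turned the sign between basal and luminal duct at the Pgr promoter (-0.42). They also turned it at the Esr1 peak 1.36 kb upstream of the TSS (0.66), and the cause was not tested. A 50 kb window, which holds fewer peaks, left 27 of the peaks higher in basal duct. Between basal TEB and basal duct, 32 peaks were higher with factors from TSS peaks and 10 without peaks over 50% soft-masked, while those lower became 6 with DESeq2, 2 with factors from TSS peaks, 11 without TMM, 3 with GC offsets and 7 with filterByExpr. Luminal TEB was lower than luminal duct at 1 peak in DESeq2, which adjusted p for a small part of the peaks in this pair. Peaks with a smaller ratio in TEBs by the interaction numbered 2 with factors from TSS peaks and 2 in DESeq2. Leaving out each library in turn gave 16 to 25 peaks higher in basal than luminal TEB, 1 to 24 higher and 0 to 23 lower in basal TEB than basal duct, 1 to 3 lower in luminal TEB than luminal duct, and 3 to 29 greater and 1 to 13 smaller ratios by the interaction. The lowest counts between basal TEB and basal duct came without basal duct replicate 1 (1 higher, 0 lower) or 3 (2 and 3), where the remaining basal duct library is assumed to vary like the other group.

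With the replicate number as a block, the counts were 41 higher and 120 lower between basal and luminal duct, 20 and 70 between basal and luminal TEB, 14 and 23 between basal TEB and basal duct, 0 and 5 between luminal TEB and luminal duct and 18 and 9 for the interaction. The deviations of same-numbered libraries correlated at -0.035 to 0.078, beside -0.057 to 0.047 over 30 other pairs. The number was not used as a pairing in the main fits, and these values do not settle whether libraries were paired. Between luminal duct and luminal TEB the 3 same-numbered pairs were at 0.037 to 0.078 and the 6 others below 0. Deviations from a group mean offset one another within the group, so the values of the pairs are not independent. The block raised the calls over all peaks in this comparison from 477 higher and 698 lower to 1049 and 1702. For the pathway promoters the block gave 1 higher between basal TEB and basal duct, 3 lower between luminal TEB and luminal duct and 11 smaller ratios by the interaction.

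For the 46 pathway promoters, factors from TSS peaks gave 15 higher and 16 lower in basal than luminal duct, GC offsets 14 and 17, and leaving out each library 4 to 8 lower. Basal TEB was higher than luminal TEB at 1 in DESeq2 and 5 with filterByExpr, and at 1 to 4 with 3 to 11 lower on leaving out libraries. Against basal duct, 1 was higher in basal TEB with factors from TSS peaks, without TMM, with GC offsets and with filterByExpr, and 2, 7, 2 and 11 were lower with factors from TSS peaks, loess offsets, GC offsets and filterByExpr. Leaving out libraries gave 0 to 1 higher and 0 to 29 lower there. Luminal TEB was lower than luminal duct at 0 with factors from TSS peaks, loess or GC offsets, 2 with filterByExpr and 0 to 4 on leaving out libraries. By the interaction there were 2 greater and 1 smaller with factors from TSS peaks, 1 smaller in DESeq2, and 0 to 1 greater and 1 to 16 smaller on leaving out libraries. Basal duct has 2 libraries, and basal TEB has the fewest counts per library (1821942 to 2489582 counts in peaks).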
